A study of Mus musculus with 4 samples.

Results

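The genes described here are 43 genes of DNA replication and mitosis, taken by symbol from a list of such genes and found among 55421 gene identifiers counted in each library. The list holds 18 genes that act in S phase and 25 that act in G2 and M phase, a division made by textbook role. The material is labelled as islet macrophages, and all 4 libraries share the wild-type genotype and the inbred strain C57BL/6. The groups differ in diet: 2 libraries are from animals fed a normal chow diet (NCD) and 2 from animals fed a high-fat diet (HFD). The sources used here do not give diet composition or length, the age or sex of the mice, or whether animals were pooled. Nothing in the labels ties the libraries to separate animals, so p-values measure only how far these libraries spread, and that spread may be technical.

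Cells that enter the cycle first copy their genome and then divide it. Copying starts from origins that are licensed with the ring-shaped MCM helicase, and genes of this step are switched on by E2F transcription factors before S phase. Genes of mitosis peak later, in G2 and M phase, through promoters with CHR elements and CCAAT boxes that are held silent in resting cells by complexes of the RB family and MuvB and are activated by B-MYB and FOXM1. Adult islet endocrine cells divide rarely, and beta cells of mice divide more often on a high-fat diet. Macrophages, lymphocytes, fibroblasts and endothelial cells can divide as well, and bulk RNA does not show which of these cells a cell cycle transcript came from.

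The libraries held 56740720 to 64490097 counts. Values are CPM, counts set to a common library total after scaling by TMM, a method that lines up the bulk of genes between libraries, unless stated otherwise. Adgre1, the gene of the macrophage antigen F4/80, stood at 29.5 and 31.9 CPM in NCD and 26.4 and 24.3 in HFD (edgeR adjusted p = 0.0726), and the 12 macrophage markers summed to 1027 to 1065 CPM of total counts, without TMM, in NCD and 861 to 865 in HFD. Hormone transcripts were far more abundant, with Ins2 at 9776 and 9896 CPM in NCD and 8311 and 8734 in HFD, so the libraries held much RNA of endocrine cells. The 43 genes together took 0.0452% and 0.0467% of all counts in NCD and 0.0689% and 0.0685% in HFD.

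All 43 genes had enough counts to be tested. In HFD 26 of them rose, 1 fell and 16 did not pass the test (edgeR's quasi-likelihood test, Benjamini-Hochberg adjusted p under 0.05 over 21563 genes). Among all genes tested, 17.9% rose and 14.5% fell. A log2 change above 0 was found for 38 of the 43, against 50.2% of all genes. The median log2 change of the 43 genes was 0.84, that of all genes tested 0.00. Both HFD libraries lay above both NCD libraries for 34 of the 43 genes, against 34.5% of all genes, and below them for 2, against 33.2%. In bulk RNA, more cells of a dividing type and more RNA per dividing cell cannot be told apart. The number that rose was 17 without NCD replicate 1, 17 without NCD replicate 2, 15 without HFD replicate 1 and 15 without HFD replicate 2, where 14%, 13.9%, 12.3% and 11.8% of all genes rose. Leaving out NCD replicate 1 ended the calls of Mcm2, Mcm7, Rrm2, Plk1, Cenpe, Cenpf, Nusap1, Cdc20 and Ube2c, and NCD replicate 2 those of Mcm2, Mcm7, E2f2, Ccna2, Plk1, Cenpe, Birc5, Tpx2 and Ube2c. Leaving out HFD replicate 1 ended the calls of Rrm2, Ccna2, Cdk1, Cenpe, Cenpf, Birc5, Kif11, Tpx2, Nusap1, Kif20a, Prc1 and Ube2c and added Mcm4. Leaving out HFD replicate 2 ended those of Mcm2, Mcm7, Ccna2, Cdk1, Plk1, Cenpe, Cenpf, Birc5, Nusap1, Prc1, Cdc20 and Ube2c and added Ccnb1. The calls of 9 genes held under each of the 13 alternatives tried: Mcm3, Mcm5, Mcm6, Cdt1, Pcna, Uhrf1, Mki67, Top2a and Bub1b.

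**Figure D1:**
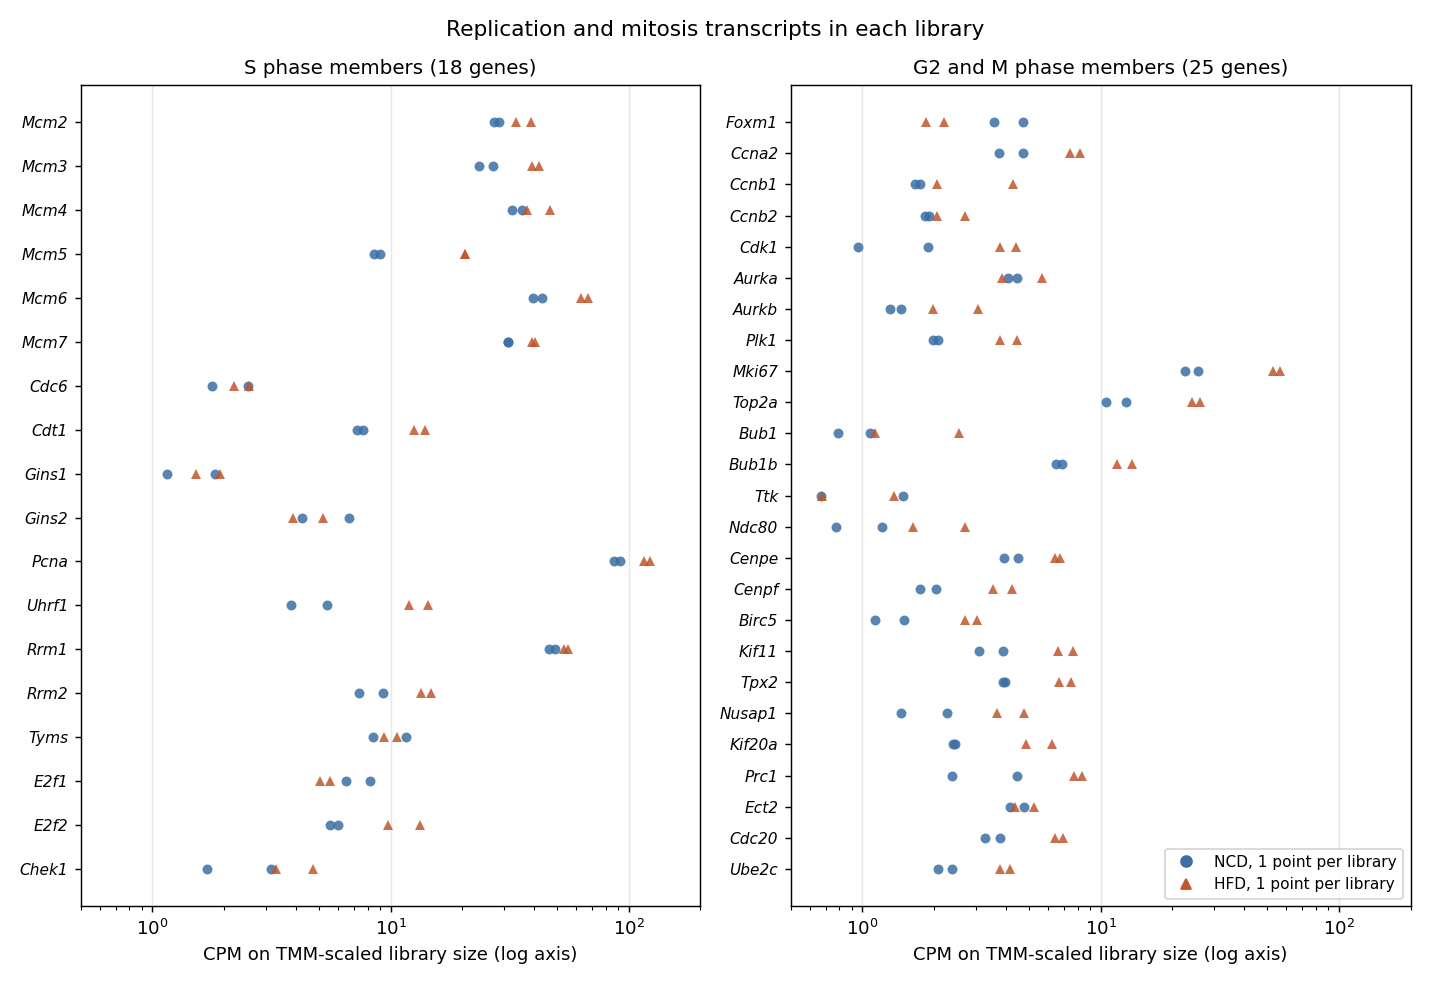
CPM (horizontal, log axis) of each of the 43 genes in each of the 4 libraries, circles for NCD and triangles for HFD, with S phase genes on the left and G2 and M phase genes on the right. For most genes both triangles lie to the right of both circles, while those of Foxm1 and E2f1 lie to the left.

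A few promoters are shown first, to let the E2F, CCAAT and CHR letters be seen beside the values of the genes that carry them. RefSeq promoter windows on GRCm38.p6, from 250 bases before to 50 bases after the start site, were matched by symbol for 35 of the 43 genes. Mcm4, Gins1, Gins2, Foxm1, Ccna2, Aurkb, Tpx2 and Kif20a had no match. Each window was searched on both strands for E2F letters (TTTGGCGC, TTTCGCGC or TTTCCCGC), for CCAAT, the box bound by NF-Y, and for the CHR letters TTTGAA. The E2F spellings can overlap each other on opposite strands, and such overlaps count as separate matches. The stretches below are from helicase genes with E2F matches, from Mki67 and Top2a, whose windows had 2 CHR matches each, and from Cdk1, whose window had both kinds. Windows with 2 CHR matches were also found for Ccnb2 and Ect2, and 1 E2F match for Cdc6, none of which passed the test for diet. The stretches were chosen after the search, all belong to genes that rose, and are read along the gene's strand, with matches in capitals.
Mcm5: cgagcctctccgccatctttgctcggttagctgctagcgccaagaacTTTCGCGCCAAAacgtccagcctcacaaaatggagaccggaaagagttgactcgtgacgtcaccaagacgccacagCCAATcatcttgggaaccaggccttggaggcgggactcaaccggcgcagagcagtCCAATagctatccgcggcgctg
Mcm6: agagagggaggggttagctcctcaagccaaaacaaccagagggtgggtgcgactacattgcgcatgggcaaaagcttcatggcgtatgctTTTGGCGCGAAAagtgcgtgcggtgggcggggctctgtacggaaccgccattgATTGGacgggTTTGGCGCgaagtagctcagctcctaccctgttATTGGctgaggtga
Mki67: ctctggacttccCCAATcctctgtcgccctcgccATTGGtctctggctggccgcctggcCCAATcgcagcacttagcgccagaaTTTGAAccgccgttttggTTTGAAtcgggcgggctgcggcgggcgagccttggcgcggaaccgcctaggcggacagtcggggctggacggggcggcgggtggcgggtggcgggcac
Top2a: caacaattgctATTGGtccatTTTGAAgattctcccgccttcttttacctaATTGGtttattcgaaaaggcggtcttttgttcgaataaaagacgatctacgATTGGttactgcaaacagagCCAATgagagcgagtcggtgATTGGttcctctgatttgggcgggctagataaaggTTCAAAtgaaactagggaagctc
Cdk1: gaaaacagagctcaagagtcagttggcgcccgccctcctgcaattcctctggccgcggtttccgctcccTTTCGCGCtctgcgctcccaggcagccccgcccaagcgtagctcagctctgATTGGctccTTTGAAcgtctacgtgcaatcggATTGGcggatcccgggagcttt
The first is chr8:75109309-75109508 on the plus strand, and the others lie on the minus strand at chr1:128359706-128359905, chr7:135716380-135716579, chr11:99024190-99024389 and chr10:69352939-69353112. All end just before the start site, except that of Cdk1, which ends 27 bases upstream of the RefSeq start, where annotated exon bases begin. In the Mcm5 stretch a pair of overlapping E2F matches begins 153 and 149 bases before the start, and in the Mcm6 stretch E2F matches begin 110, 106 and 47 bases before it. The Mki67 stretch has 3 CCAAT boxes and then CHR matches 116 and 98 bases before the start. The Top2a stretch has 5 CCAAT boxes and CHR matches 179 and 23 bases before the start. Cdk1, the mitotic kinase, had an E2F match 131 bases and a CHR match 71 bases before the start, the latter between CCAAT boxes at 80 and 48 bases.

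At least 1 E2F match was found for 8 of 15 S phase genes with a window (53.3%), for 1 of 20 G2 and M phase genes (5.0%) and for 2.12% of all 27025 genes with a window. The 8 were Mcm3, Mcm5, Mcm6, Mcm7, Cdc6, Cdt1, Uhrf1 and E2f2. A CHR match was found for 2 of 15 S phase genes (13.3%), Mcm2 and E2f2, for 15 of 20 G2 and M phase genes (75.0%) and for 20.2% of all genes. Ccnb1, Bub1, Cenpe, Birc5 and Nusap1 were the G2 and M phase genes without these letters in the window. CCAAT occurred in 66.7% of S phase genes, 85% of G2 and M phase genes and 41.1% of all genes. Set against the change with diet, E2F letters were found for 8 of 23 genes that rose and 1 of 12 that did not pass, and CHR letters for 12 of 23 and 5 of 12. The counts by change with diet pool both phases, so they do not separate the change from the phase. These are matches of letters, given as a description.

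**Figure D2:**
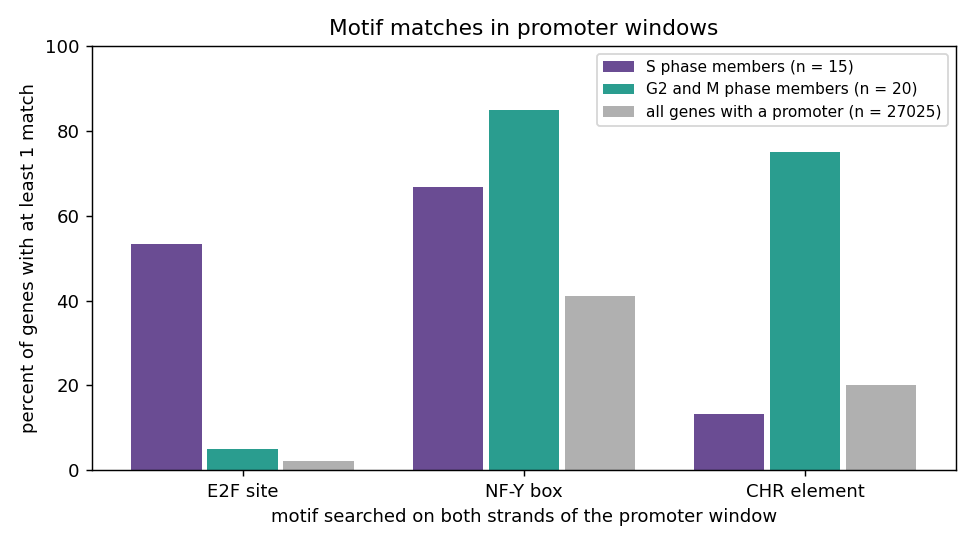
Percent of genes (vertical) with at least 1 match to each motif in the promoter window, for 15 S phase genes, 20 G2 and M phase genes and all 27025 genes with a promoter window. E2F matches stand at 53.3% in S phase genes and CHR matches at 75.0% in G2 and M phase genes, with 2.12% and 20.2% over all genes.

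Most subunits of the MCM helicase rose, with 1 of its 2 loading factors. Of 8 licensing and helicase genes 6 rose and 2 did not pass, with a median log2 change of 0.52. Mcm5, a subunit of the helicase ring, had the largest change of the group and stood at 8.53 and 8.99 CPM in NCD and 20.6 in each HFD library. Its log2 change was 1.23 ± 0.11 (standard error, edgeR adjusted p = 0.000945). Mcm6 stood at 39.6 and 43 CPM in NCD and 67.2 and 63.1 in HFD, a log2 change of 0.66 ± 0.08 (edgeR adjusted p = 0.0023). Mcm3 went from 27 and 23.4 CPM to 39.2 and 41.9, a log2 change of 0.68 ± 0.10 (edgeR adjusted p = 0.00511). In each of these subunits the HFD libraries lay well above both NCD libraries. Mcm2 and Mcm7 moved less, from 28.5 and 27.1 CPM to 33.7 and 38.7 and from 31.0 and 31.1 to 39.1 and 40.4, with log2 changes of 0.38 and 0.35 (edgeR adjusted p = 0.0324 and 0.0146). Mcm4, the sixth subunit, stood at 35.5 and 32.2 CPM in NCD and 37.3 and 46.5 in HFD and did not pass (edgeR adjusted p = 0.124). Cdt1, which brings the helicase to origins, rose from 7.65 and 7.22 CPM to 14.0 and 12.6, a log2 change of 0.84 ± 0.13 (edgeR adjusted p = 0.00676). Its partner in loading, Cdc6, stood at 2.53 and 1.79 CPM in NCD and 2.54 and 2.19 in HFD, with overlapping diets (edgeR adjusted p = 0.775).

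Per kilobase of exon, the helicase subunits can be set beside each other. In NCD, Mcm5 had the lowest level of the 6 subunits, 2.14 and 2.25 CPM per kb, and Mcm2 the next lowest, 4.09 and 3.89. In HFD, Mcm5 stood at 5.17 and 5.15 CPM per kb and Mcm2 at 4.84 and 5.56, so their ranges overlapped. Mcm4, at 9.90 and 8.98, and Mcm6, at 8.49 and 9.22, overlapped at the top in NCD, whereas in HFD Mcm6, at 14.4 and 13.5, lay above Mcm4, at 10.4 and 13.0. Exon lengths here are unions over all annotated transcripts, which makes levels of genes with long rare exons too low. Exon letters of Mcm7 are shared in part with Ap4m1 and Cops6 on the opposite strand, and the sources used here do not say whether counting used strand.

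**Figure D3:**
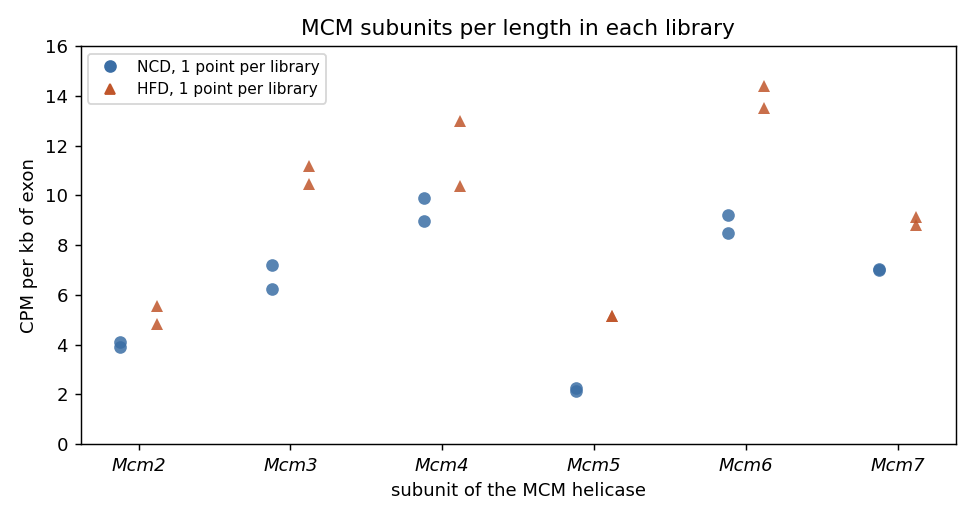
CPM per kb of exon (vertical) of the 6 helicase subunits in each library, circles for NCD and triangles for HFD. Mcm5 is the lowest subunit in NCD, and in HFD its points at 5.17 and 5.15 lie between those of Mcm2.

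Genes of the replication fork split. Uhrf1, which guides maintenance of DNA methylation to newly copied DNA, rose from 3.8 and 5.39 CPM in NCD to 14.3 and 12 in HFD. Its log2 change of 1.52 ± 0.22 was the largest of the S phase genes (edgeR adjusted p = 0.00489). Pcna, the sliding clamp of DNA polymerases, had the highest level per kb of all 43 genes in both diets and rose from 86.6 and 92.1 CPM to 122 and 116, a log2 change of 0.41 ± 0.06 (edgeR adjusted p = 0.00565). Pcna has pseudogene copies in the annotation with which its reads could be shared. Gins1 and Gins2, subunits of the complex that activates the helicase, did not pass, with overlapping diets. Gins1 stood at 1.15 and 1.83 CPM in NCD and 1.92 and 1.52 in HFD, and Gins2 at 6.70 and 4.25 and at 3.91 and 5.19 (edgeR adjusted p = 0.71 and 0.538). Of the 4097 exon bases of Gins2, 2758 are also exon of Gse1 on the opposite strand, so its value is uncertain.

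Of the 3 genes listed here under deoxynucleotide supply (Rrm1, Rrm2 and Tyms), Rrm2 alone passed. It encodes the S phase subunit of ribonucleotide reductase and rose from 7.38 and 9.27 CPM in NCD to 14.7 and 13.4 in HFD, a log2 change of 0.76 ± 0.16 (edgeR adjusted p = 0.0174). Rrm1, the large subunit, stood at 46.4 and 49.0 CPM in NCD and 55.6 and 53.6 in HFD, without overlap but short of the threshold (edgeR adjusted p = 0.0776). Tyms, thymidylate synthase, stood at 8.47 and 11.6 CPM in NCD and 10.7 and 9.34 in HFD (edgeR adjusted p = 0.986), and the sign of its change turned with the scaling.

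Of 3 regulators of S phase 1 rose and 2 did not pass. E2f2, an activating E2F, rose from 6.03 and 5.57 CPM in NCD to 9.74 and 13.2 in HFD, a log2 change of 0.99 ± 0.19 (edgeR adjusted p = 0.0137). E2f1, its close relative, stood at 6.50 and 8.20 CPM in NCD and at 5.59 and 5.07 in HFD. Both HFD libraries of E2f1 lay below both NCD libraries, with a log2 change of -0.46 ± 0.18 that did not pass (edgeR adjusted p = 0.116). Chek1, the checkpoint kinase that restrains mitosis while DNA is being copied, stood at 1.69 and 3.14 CPM in NCD and 4.70 and 3.30 in HFD (edgeR adjusted p = 0.197).

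Genes of G2 and M phase had the higher median change. Of the 25, 16 rose, 1 fell and 8 did not pass, with a median log2 change of 0.93, and of the 18 S phase genes 10 rose, 0 fell and 8 did not pass, with a median of 0.40. The difference of the medians, 0.53, ranged from 0.42 to 0.53 under the alternatives and has no test, since genes are not replicates of a diet. Without NCD replicate 1 or 2, the G2 and M phase median was 0.88 or 0.93, and the S phase median 0.39 or 0.52. Without HFD replicate 1 or 2, these medians were 0.99 or 0.89 and 0.46 or 0.41. Fewer G2 and M phase genes passed as higher in each such fit. Without either HFD library, a smaller share of G2 and M phase genes than of S phase genes passed as higher. Summed over S phase genes, the libraries held 355 and 365 CPM of total counts in NCD and 498 and 497 in HFD. Summed over G2 and M phase genes, they held 96.7 and 102 CPM in NCD and 191 and 187 in HFD. The second sum thus went from 27.2% and 27.8% of the first in NCD to 38.5% and 37.7% in HFD. Mki67 and Top2a hold much of that sum, and without them the share was 17.1% and 18.1% in NCD and 22.2% and 21.8% in HFD. With 2 libraries a diet no exact test over libraries can pass, and none is given for these sums.

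**Figure D4:**
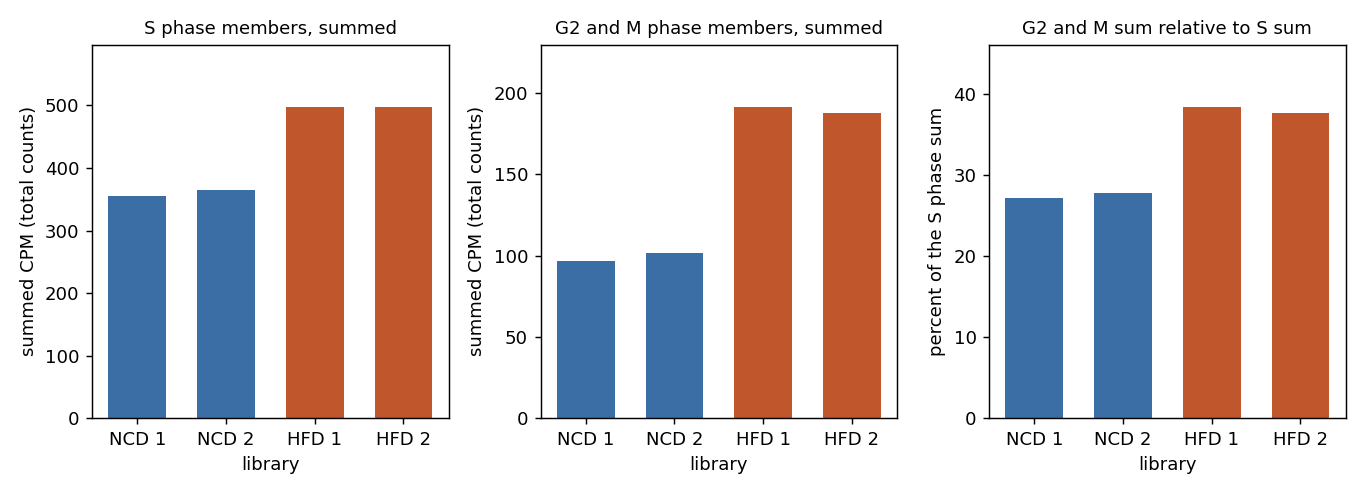
Bars give the summed CPM of total counts of 18 S phase genes and of 25 G2 and M phase genes, and the second sum in percent of the first, in each of the 4 libraries (blue NCD, orange HFD). The percentage is 27.2 and 27.8 in NCD and 38.5 and 37.7 in HFD.

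Mki67 and Top2a were the most abundant G2 and M phase transcripts in CPM. Mki67, the proliferation antigen that coats mitotic chromosomes, stood at 25.5 and 22.7 CPM in NCD and 56.7 and 53.0 in HFD. Its log2 change of 1.19 ± 0.09 had the smallest p of all 43 genes (edgeR adjusted p = 0.000584). Top2a, the topoisomerase that untangles sister chromatids, went from 10.6 and 12.8 CPM to 24.3 and 26.2, a log2 change of 1.11 ± 0.13 (edgeR adjusted p = 0.00249). For both genes the HFD libraries were more than 1.5-fold above the higher NCD library.

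Mitotic kinases and cyclins gave mixed calls at low levels. Cdk1, the kinase that drives entry into mitosis, had the largest log2 change of the 43 genes, 1.53 ± 0.37, from 0.962 and 1.88 CPM in NCD to 4.43 and 3.76 in HFD (edgeR adjusted p = 0.0285). Ccna2, its cyclin partner from S phase on, rose from 4.70 and 3.75 CPM to 8.16 and 7.47 (edgeR adjusted p = 0.0173). Plk1, a kinase of spindle assembly and mitotic exit, rose from 1.99 and 2.08 CPM to 3.78 and 4.47 (edgeR adjusted p = 0.0194). The B-type cyclins, partners of Cdk1 in mitosis, did not pass. Ccnb1 stood at 1.74 and 1.66 CPM in NCD and 4.28 and 2.05 in HFD, with HFD replicate 1 well above the other HFD library (edgeR adjusted p = 0.148, and 0.0358 without HFD replicate 2). Ccnb2 stood at 1.91 and 1.83 CPM in NCD and 2.05 and 2.69 in HFD (edgeR adjusted p = 0.403). The Aurora kinases, of centrosomes (Aurka) and of centromeres (Aurkb), also fell short, with Aurka at 4.44 and 4.10 CPM in NCD and 5.65 and 3.87 in HFD and Aurkb at 1.30 and 1.45 and at 1.99 and 3.06 (edgeR adjusted p = 0.671 and 0.0951).

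Foxm1 was the gene of the 43 that passed as lower. It encodes a transcription factor that activates G2 and M phase genes and that is itself made in cycling cells. Foxm1 stood at 3.55 and 4.73 CPM in NCD and 1.84 and 2.21 in HFD, so that both HFD libraries lay below both NCD libraries, with counts of 229 and 294 against 114 and 125. Its log2 change was -1.03 ± 0.25 (edgeR adjusted p = 0.0301). Leaving out NCD replicate 2 ended the call (edgeR adjusted p = 0.111), as did leaving out HFD replicate 1 (0.115) or HFD replicate 2 (0.0672), with the change between -1.22 and -0.82 under all alternatives. Of its 5754 exon bases, 144 are shared with Tex52 and 97 with Gm44596 on the same strand.

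**Figure D5:**
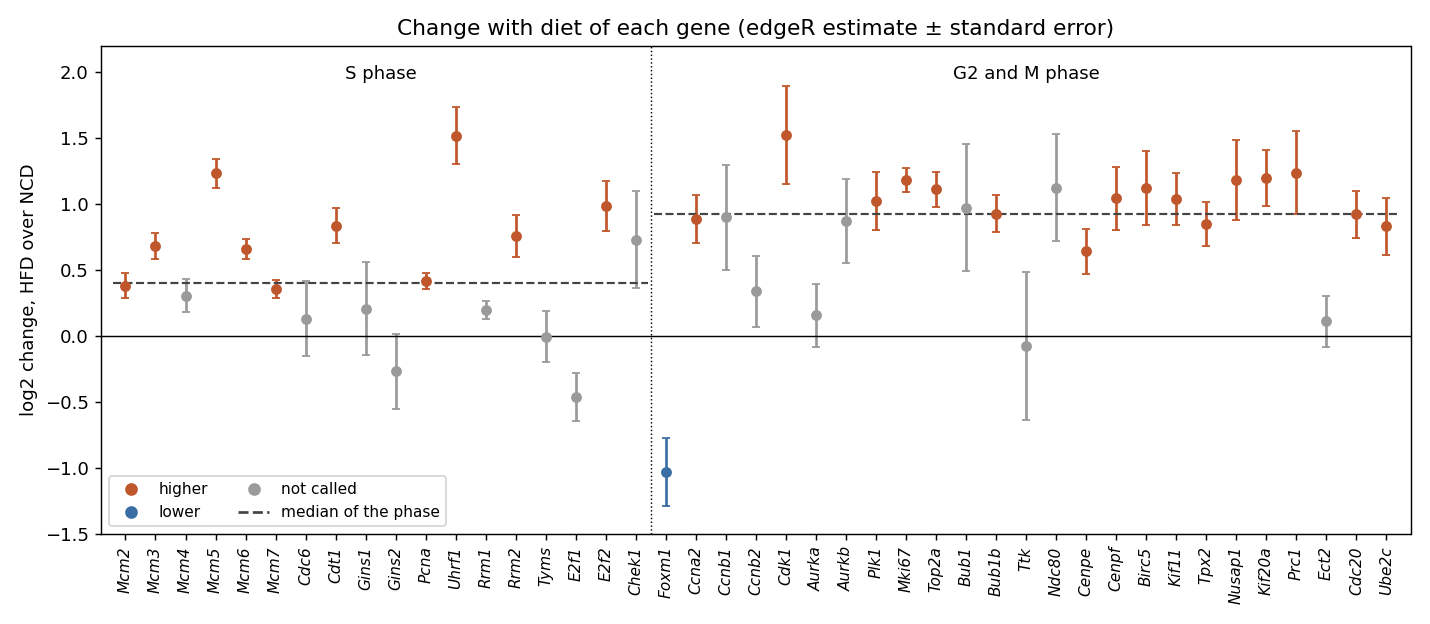
Log2 change of HFD over NCD (vertical) with its standard error for each of the 43 genes in order of role, orange for genes that rose, blue for the gene that fell and grey for those that did not pass, with dashed lines at the medians of 0.40 and 0.93. Foxm1, at -1.03, is the one gene of the 43 that passed as lower.

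Among 7 genes of the kinetochore and the spindle checkpoint, 4 rose and 3 did not pass. Bub1b, which encodes the checkpoint protein BUBR1, rose from 6.86 and 6.48 CPM in NCD to 11.8 and 13.6 in HFD, a log2 change of 0.93 ± 0.14 (edgeR adjusted p = 0.00618). Birc5, encoding survivin of the chromosomal passenger complex, rose from 1.49 and 1.13 CPM to 3.02 and 2.69 (edgeR adjusted p = 0.0314). Cenpe, a kinetochore motor, rose from 4.51 and 3.94 CPM to 6.43 and 6.78, and Cenpf, a large kinetochore protein, from 1.74 and 2.03 to 3.52 and 4.24 (edgeR adjusted p = 0.0372 and 0.0236). For these 4 genes the diets did not overlap. Bub1, the kinase partner of the checkpoint, stood at 0.791 and 1.08 CPM in NCD and 1.13 and 2.54 in HFD, and Ndc80, which binds microtubules, at 1.21 and 0.772 and at 1.63 and 2.70 (edgeR adjusted p = 0.19 and 0.0915). Ttk, the kinase that starts checkpoint signalling, stood at 0.667 and 1.48 CPM in NCD and 0.679 and 1.36 in HFD, spreading as widely within a diet as between diets (edgeR adjusted p = 0.937).

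Genes of the spindle, of cytokinesis and of the anaphase-promoting complex mostly rose. All 3 spindle genes passed: Kif11, a motor that pushes spindle poles apart, from 3.07 and 3.88 CPM in NCD to 7.64 and 6.64 in HFD (edgeR adjusted p = 0.0133). Tpx2, an activator of Aurora A, rose from 3.99 and 3.89 CPM to 7.53 and 6.68 (edgeR adjusted p = 0.0141), and Nusap1, a microtubule bundler, from 1.46 and 2.27 to 4.78 and 3.67 (edgeR adjusted p = 0.0349). Of the cytokinesis genes, the midzone motor gene Kif20a rose from 2.44 and 2.40 CPM to 6.22 and 4.88 (edgeR adjusted p = 0.0102). Prc1, which crosslinks midzone microtubules, rose from 2.37 and 4.44 CPM to 8.32 and 7.75 (edgeR adjusted p = 0.0327). Ect2, the exchange factor that starts furrowing, stood at 4.16 and 4.75 CPM in NCD and 5.23 and 4.38 in HFD, with overlap (edgeR adjusted p = 0.716). Cdc20, which activates the anaphase-promoting complex, rose from 3.26 and 3.8 CPM to 6.41 and 6.96, and Ube2c, an enzyme that passes ubiquitin to it, from 2.08 and 2.38 to 3.76 and 4.17 (edgeR adjusted p = 0.0139 and 0.0362). Log2 changes of the genes in these groups that rose lay between 0.83 and 1.24. Ccna2, Nusap1, Kif20a, Prc1, Cdc20 and Ube2c share exon bases with protein-coding genes on the opposite strand. With Mcm7, Gins2 and Foxm1 set aside as well, 34 of the 43 genes remain, of which 19 rose and 0 fell.

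Other genes of the same pathways were counted as well, beside 17.9% of all genes that rose and 14.5% that fell. Of 46 other replication genes 7 rose, 7 fell and 32 did not pass, which is near the shares over all genes. Their median log2 change was 0.08, and their sum was 1016 and 1060 CPM of total counts in NCD and 1017 and 992 in HFD. Orc4, a subunit of the origin recognition complex, fell from 69.1 and 71.4 CPM to 54.3 and 55.2 (edgeR adjusted p = 0.00813). Dut, which removes dUTP, fell from 38.9 and 39.8 CPM to 26.2 and 29.2, and Fen1, the flap endonuclease, from 13.8 and 13.8 to 9.05 and 7.91 (edgeR adjusted p = 0.00848 and 0.0119). Pole, the leading strand polymerase, rose from 2.14 and 2.90 CPM to 6.01 and 5.94 (edgeR adjusted p = 0.0102). Of 50 other mitosis genes 13 rose, 1 fell and 36 did not pass, with a median log2 change of 0.45. Ncaph, a condensin subunit, rose from 1.71 and 0.837 CPM to 4.91 and 5.81 (edgeR adjusted p = 0.011), Cks2, a small partner of Cdk1, from 1.97 and 2.19 to 5.59 and 5.88 (edgeR adjusted p = 0.00375), and Cdca2, a phosphatase subunit, from 1.5 and 1.32 to 3.38 and 3.62 (edgeR adjusted p = 0.0115). Spc25, of the NDC80 complex, was the mitosis gene that fell.

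Of 14 genes of the RB family, its E2F partners and MuvB, 1 rose, 2 fell and 11 did not pass, with a median log2 change of -0.13. Among all genes tested 17.9% rose and 14.5% fell, so the share of this list that fell was near that of all genes. Rbl1, the pocket protein p107, which is itself an E2F target, rose from 18.7 and 16.1 CPM in NCD to 23.4 and 23.3 in HFD (edgeR adjusted p = 0.0367). Tfdp1, the partner that E2F proteins need to bind DNA, fell from 101 and 99.2 CPM to 68.1 and 81.4, and Rbbp4, a histone-binding subunit of MuvB, from 212 and 217 to 185 and 181 (edgeR adjusted p = 0.0224 and 0.0146). E2f6, a repressive E2F, stood at 32.3 and 31.8 CPM in NCD and 27.5 and 26.2 in HFD (edgeR adjusted p = 0.0559).

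Markers of several cell types moved with the 43 genes, and their part in the rise was not tested. Sums over markers are CPM of total counts, and values of single genes are CPM after TMM. The calls of each list stand beside 17.9% of all genes tested that rose and 14.5% that fell. The 13 markers of B and plasma cells all rose, summing to 573 and 574 CPM in NCD and 3786 and 3818 in HFD. Of the 11 tested T and NK cell markers 10 rose, with a median log2 change of 3.30. The sums over all 13 went from 57.2 and 57.5 CPM to 152 and 136, with 3 and 2 of 13 at 0 in the NCD libraries. Il7r held most of that sum in NCD, at 41.7 and 43.3 CPM against 58.5 and 54.4 in HFD (named after its values were seen). All 10 fibroblast and stellate markers rose, summing to 127 and 128 CPM in NCD and 1266 and 1297 in HFD, as did all 12 acinar markers, from 496 and 513 to 3283 and 3881. Of 10 endothelial markers 6 rose and 2 fell (1898 and 1942 CPM against 2267 and 2258). Of 8 ductal markers 5 rose and 1 fell (1251 and 1306 CPM against 2223 and 2456). The rise of the ductal sum rests on Spp1, at 590 and 626 CPM in NCD and 1686 and 1896 in HFD (named after its values were seen). Of 12 macrophage markers 3 rose and 7 fell, and of 10 beta cell markers 0 rose and 8 fell (17602 and 18079 CPM against 13676 and 14271). Of 9 alpha and delta cell markers 4 rose and 1 fell (13355 and 14004 CPM against 16728 and 17532). The 1 that fell was the delta cell hormone gene Sst, from a mean of 3912 CPM in NCD to 3304 in HFD (edgeR adjusted p = 0.0063). By mean of the 2 libraries, the B cell antibody gene Ighm went from 501 to 3321 CPM, the T cell receptor subunit Cd3e from 0.616 to 6.07 and the collagen gene Col1a1 from 13 to 176. The acinar enzyme Cpa1 went from 35.6 to 284 CPM, the endothelial antigen Pecam1 from 271 to 446 and the ductal keratin Krt19 from 6.61 to 20.4, and each of these 6 markers passed as higher. Other markers of the last 2 lists fell, with the ductal keratin Krt7 going from 445 to 241 CPM and the endothelial receptors Kdr from 361 to 309 and Flt1 from 393 to 348 (edgeR, named after their values were seen). The glucagon gene Gcg rose from 9256 to 13138 CPM and Csf1r, the macrophage growth factor receptor, from 86.6 to 101, while Ins2 and the macrophage lysosomal gene Cd68, from 146 to 122, fell. Germinal centre B cells divide fast, and of their 6 markers 5 were tested and 2 rose, with sums of 47.7 and 48.3 CPM in NCD and 63.7 and 70.02 in HFD. Erythroid precursors also divide, and their 7 markers summed to 4.31 and 2.70 CPM in NCD and 7.95 and 15.5 in HFD, with 3 of 5 tested markers higher. Of 8 monocyte and neutrophil markers 5 were tested and 3 rose, with sums of 13.5 and 11 CPM against 67.4 and 61.9 and S100a8 at 0 in every library.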

How the data were processed

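The authors deposited raw counts, 1 table a library, for 55421 Ensembl identifiers. Per the submitters' processing notes, HISAT, featureCounts 1.5.0, DESeq 1.8.3 and GRCm38 are named, with no role or setting. How strand and reads with several matches were handled is unknown here. GENCODE M21 (GRCm38) gave symbols for 55240 identifiers, exon lengths and shared exons. Depth was 64490097 and 62171973 counts for NCD, and 61855337 and 56740720 for HFD. Counts that are multiples of 4 occurred 1.64 to 1.74 times as often as their neighbours among low counts, so a count may be less than 1 independent fragment.

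Genes were filtered with filterByExpr (minimum count 10), scaled by TMM and tested for diet by the quasi-likelihood F test of edgeR 4.0.16 in R 4.3.3, without a replicate block. A standard error is the size of the log2 change over the square root of F. Other settings tried were scaling by DESeq2 size factors or by totals alone, DESeq2 1.42.0 (Wald test), limma 3.58.1 (voom), other count filters, the block, each library left out, scaling without the most counted, endocrine and acinar genes, and counts divided by 4. Leaving out members that share exons was added after seeing the data. The text names all 43 genes, the 4 genes of smallest p in each other pathway list and a fixed set of markers, some of which are not reported here. Members, lists and settings were chosen with earlier results of these data known.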

Additional observations from a re-analysis of the deposited data

How the results depend on the processing

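The direction of change of 36 of the 43 genes was the same under all 13 alternatives. Leaving out a library in turn gave 15 to 17 genes higher and 0 to 1 lower of the 43, 5 to 10 G2 and M phase genes higher and 0 to 1 lower, and 2015 to 2174 genes lower among all tested. Such fits have fewer samples, and the lone library of a diet takes its spread from the other diet. Without genes that share exon bases with another protein-coding gene, 10 G2 and M phase genes were higher and 0 lower, and 0 of all members were lower, since fewer genes were counted. Libraries with the same replicate number did not deviate together (r = 0.00211 across genes, which are not independent), and with the number as a replicate block 22 of the 43 genes were higher and 1 lower. Genes whose sign turned had adjusted p of at least 0.438 in those fits, and the cause was not tested. With a library left out, the log2 change ranged from -0.134 to 0.401 for Aurka, -0.103 to 0.403 for Cdc6, -0.015 to 0.23 for Ect2, -0.0929 to 0.578 for Gins1, -0.564 to 0.0983 for Gins2, -0.663 to 0.602 for Ttk and -0.22 to 0.236 for Tyms. With all libraries, that of Tyms was 0.0022 with DESeq2's size factors, 0.0024 with DESeq2's test, 0.016 with limma-voom, 0.019 at a mean of at least 1 CPM, 0.0082 with a replicate block and 0.0094 with counts divided by 4. Bub1 and Ttk had 42 to 144 counts in a library, and whether depth limited their tests was not examined.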

Other observations

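Spc25 stood apart from its partners in the NDC80 complex, which holds Ndc80, Nuf2, Spc24 and Spc25 and links kinetochores to microtubules. These values were looked up after Spc25 appeared as the mitosis gene that fell. Per kilobase of exon, Spc25 stood at 20.9 CPM in NCD and 13.8 in HFD (means of 2 libraries), whereas Ndc80 stood at 0.153 and 0.334, Nuf2 at 0.227 and 0.335 and Spc24 at 0.51 and 0.58. Spc25 fell from 65.1 and 68.1 CPM to 44.9 and 43.4, a log2 change of -0.59 ± 0.06 (edgeR adjusted p = 0.00192). Its neighbour on chromosome 2 of GRCm38 is G6pc2, a gene of beta cells that encodes a glucose-6-phosphatase, on the opposite strand. Spc25 spans bases 69193895 to 69206194 and G6pc2 bases 69211073 to 69227841, with a gap of 4878 bases and no shared exon bases in the annotation. G6pc2 fell from 133 and 136 CPM to 97.3 and 91.0, a log2 change of -0.51 ± 0.06 (edgeR adjusted p = 0.00213). Whether the counts of Spc25 come from dividing cells was not tested.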
